A study of Mus musculus with 9 samples.

Results

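The genes described here encode the T cell receptor's CD3 and zeta chains and the kinases, adaptors, enzymes, surface partners and brakes that act close to the receptor. They were chosen by a list of 44 symbols, of which 43 had a row among the 13698 genes measured. The remaining symbol, Cd45, is an older name of Ptprc, which is itself on the list. All 43 had a mean of at least 10 CPM (a read count scaled to a common library total), so none was lost to low values. For this cutoff, here and wherever genes averaging at least 10 CPM are named, the mean was taken over the log2 values of the 9 libraries.

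Treg (regulatory T) cells were sorted from mouse lymph node and spleen, and their RNA was sequenced in 9 libraries of 3 groups with 3 mice each. The deficient cells were YFP+MHCII- cells of the genotype LRFffThpokff Foxp3 Cre-YFP/X, which lack the transcription factors Thpok (encoded by Zbtb7b) and LRF (encoded by Zbtb7a). The animal controls were YFP-MHCII-CD25hi cells of the same mice, which kept both factors because they used the unmodified Foxp3 allele. The genetic controls were YFP+MHCII- cells of mice labelled WT Foxp3 Cre-YFP/X, which kept both factors and used the allele that makes YFP and Cre. All the mice were females that carried Foxp3 Cre-YFP/X on a C56Bl6/129 mix background; no age is stated in the labels. Cre was made only where the modified Foxp3 allele was active, so the deletion follows Foxp3 expression, and deficient cells developed beside cells that kept both factors. Animal controls differ from deficient cells in Foxp3 allele and sorting gate as well as in both factors, and genetic controls differ from them in mouse.

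As background, a T cell receptor binds peptide held by an MHC molecule, and the associated CD3 and zeta chains carry the signal inward through tyrosine motifs. Lck phosphorylates those motifs, Zap70 docks on them and phosphorylates the scaffolds LAT and SLP-76, and the complex that forms there starts calcium, Ras, protein kinase C and NF-kB signalling. Phosphatases, ubiquitin ligases, diacylglycerol kinases and the kinase Csk set the strength and length of the signal. Treg cells need this signal to form in the thymus and to keep their suppressive activity.

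Facts of the whole data set bear on these values. Zbtb7b was between 0.147 and 0.366 CPM in the deficient libraries and between 76.9 and 149 CPM in the 6 control libraries. Zbtb7a overlapped between the groups, at 78.8 to 103 CPM in the deficient and 69.5 to 128 CPM in the control libraries, and the values do not show which of its exons were read. Read depth is unknown, because the deposited values had been normalized to nearly equal totals. Of 7 Treg markers all were measured, and their summed level ranged from 2637 to 3055 CPM in the deficient cells, from 2964 to 3468 in the genetic controls and from 4227 to 4453 in the animal controls. Foxp3 itself lay between 24.8 and 38.1 CPM in the YFP-positive libraries and between 754 and 999.7 CPM in the animal controls. Of 12 B cell markers 9 were measured, and their sums were 693 to 912, 695 to 1118 and 1321 to 1860 CPM in the same order of groups; Ighm made up most of each sum, and Cd79b, the highest of the other 8, did not exceed 74.3 CPM. Of 16 myeloid markers 10 were measured, with sums of 151 to 407, 191 to 751 and 387 to 452 CPM. Cd74 and Cst3 made up most of each animal-control sum. Lyz2 was lowest in the animal controls, at 0.978 to 3.11 CPM. It measured 9.62 to 36.3 CPM in the deficient cells and 7.21 to 257 CPM in the genetic controls. Other myeloid markers did not all share that order. Cd74 was highest in the animal controls, at 234 to 272 CPM, beside 34.8 to 157 CPM in the deficient cells and 87.0 to 199.96 CPM in the genetic controls. Cybb also had its highest mean in the animal controls, at 38.4 CPM, beside 8.31 and 27.1 CPM. Of 11 erythroid and platelet markers 6 were measured. Their sums were 76.1 CPM in genetic control 8619, 40.8 CPM in deficient library 232614 and at most 1.13 CPM in the other libraries. Of 8 NK and 7 gamma-delta T cell markers 3 each were measured, with sums of at most 16.8 and 27.1 CPM. The part of these markers in the results below was not tested.

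Levels are given below by library, in the order of mice 142114, 232614 and 432614 for deficient cells and animal controls and of mice 124, 8619 and 8800 for genetic controls. Differences are log2 fold changes ± SE from limma with n = 3 against 3, with Benjamini-Hochberg adjusted p over all 13698 genes, and a gene is called when that p is under 0.05. Intervals are 95% intervals of the log2 difference from the same fit, not adjusted for the number of genes. The libraries are bulk samples, so fewer cells of a kind and less RNA per cell cannot be told apart.

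Few genes of the receptor and its proximal pathway were called different between deficient and control Treg cells. Against the genetic controls 2 of 43 members were called, Cd3e upward and Trat1 downward, where 0.869% of all genes were called. Against the animal controls 0 of 43 were called by limma, where 0.891% of all genes were called. On simulated data for the comparison with the genetic controls, 7% of genes changed by 1 on the log2 scale were recovered. Of genes changed by 2, 46% were. The changed genes were drawn from the 7550 genes averaging at least 10 CPM, not from the members alone. The median SD within a group was 0.46 on the log2 scale in those genes and 0.23 in the members. These shares are therefore not the recovery of members, and members that were not called may still differ. At an unadjusted p under 0.05, 1 member was higher and 6 were lower against the genetic controls, beside 4.96% and 5.66% of all genes. Against the animal controls 5 were higher and 6 lower at that p, beside 5.57% and 6.34% of all genes. The median log2 fold change of the members was -0.10 in each of these comparisons, beside 0.04 over all genes in each. The difference was smaller than 0.5 on the log2 scale, in either direction, for 33 members (76.7%) against the genetic controls and for 34 (79.1%) against the animal controls. Most other genes lay there too, at 66.3% and 65% of the 7550 genes averaging at least 10 CPM. Estimates lay below 0 for 28 (65.1%) and 27 (62.8%) of the members, beside 47.4% and 47.5% of all genes, in comparisons that share the deficient libraries. By role, against the genetic controls these were 1 of 4 receptor chains, 2 of 4 kinases, 6 of 10 adaptors, 3 of 6 enzymes, 3 of 3 NFAT genes, 3 of 5 surface partners and 10 of 11 brakes. In the comparison with the animal controls they were 3, 2, 6, 1, 3, 3 and 9 in the same order.

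The members also had a lower median spread between mice than the wider gene set. The median SD within a group was 0.23 on the log2 scale over the 43 members, beside 0.46 over the 7550 genes averaging at least 10 CPM. These sets were not matched for level, and the part of level in this difference was not tested. Cd3e had the lowest SD of the members, 0.0968, and Cbl, a ubiquitin ligase, the highest, 0.882. Libraries shared the extremes unevenly: animal control 232614 and deficient library 432614 each held the lowest of the 9 values for 10 members, deficient library 232614 for 9, and genetic control 124 held the highest value for 11.

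**Figure D1:**
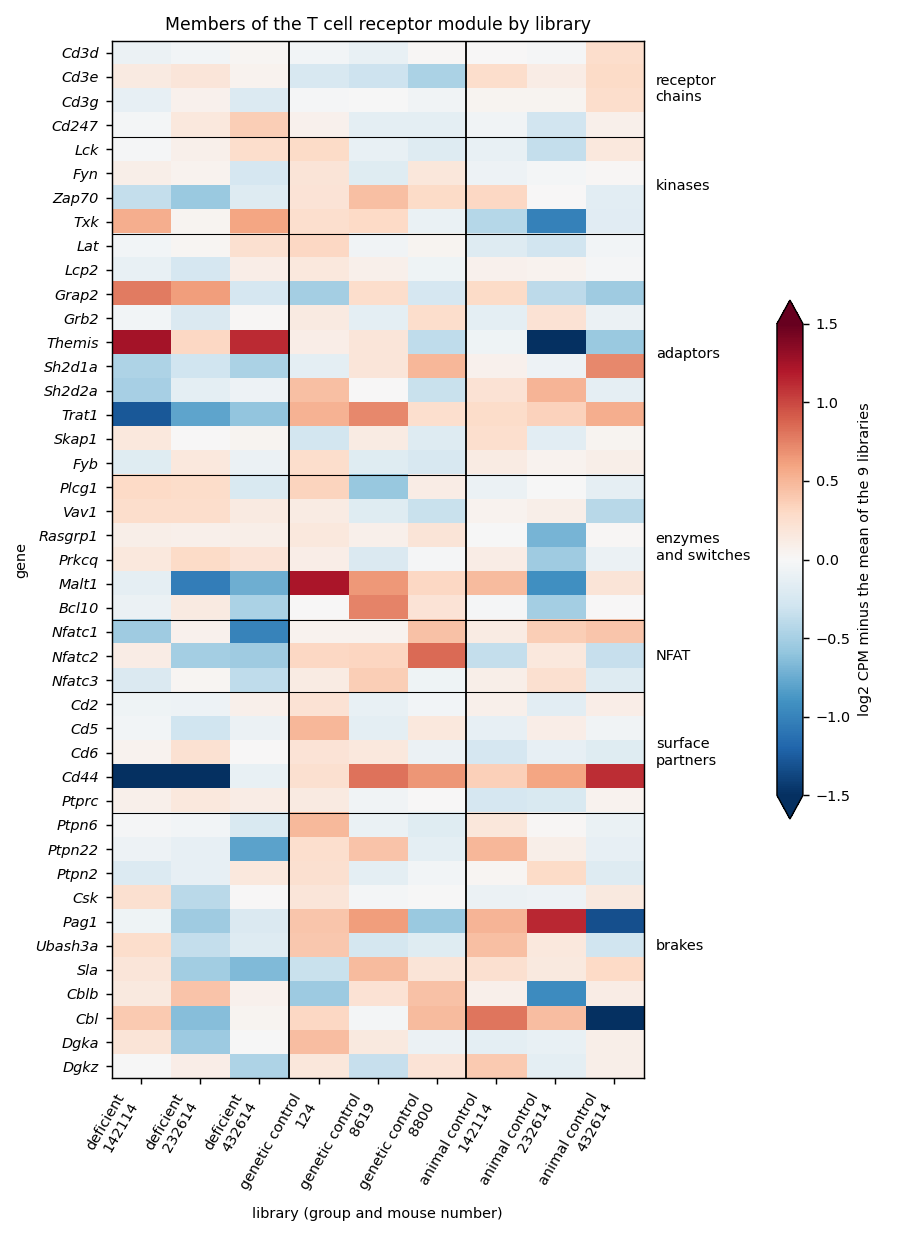
Deviation of each of the 43 members (rows, grouped by role) from its own mean over the 9 libraries (columns, 3 deficient, 3 genetic control and 3 animal control libraries), in log2 CPM; colours saturate at 1.5 in either direction. Most rows are pale, and Trat1 and Cd44 are blue in the deficient libraries, with deficient library 432614 paler than the other deficient libraries for Cd44.

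**Figure D2:**
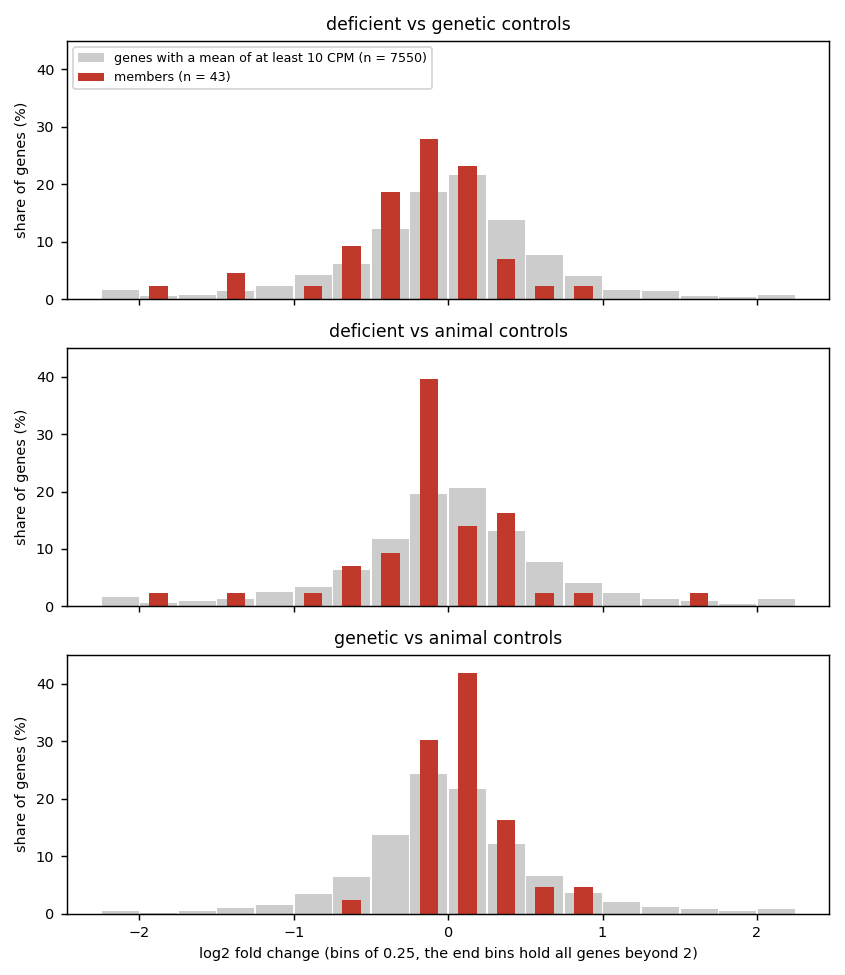
Share of genes (vertical axis, %) by log2 fold change (horizontal axis, bins of 0.25, end bins holding all genes beyond 2) for the 43 members (narrow bars) and for the 7550 genes averaging at least 10 CPM (wide bars), in 3 comparisons. Within 0.5 of 0 lie 33, 34 and 38 of 43 members in the panels from top to bottom, beside 66.3%, 65% and 71.6% of the 7550 genes.

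Counting by library rather than by test, the deficient libraries lay below all 6 control libraries for 4 members, Zap70, Sh2d1a, Trat1 and Cd44, and above all 6 for 3, Themis, Vav1 and Prkcq. Among the 7550 genes averaging at least 10 CPM, 4.36% lay below and 3.93% above in that way. Against the genetic controls alone, 6 members (14%) were lower without overlap and 4 (9.3%) higher, beside 8.72% and 9.21% of those genes. Against the animal controls alone, 5 members (11.6%) were lower without overlap and 7 (16.3%) higher, beside 9.48% and 9.05%.

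The DNA just before the start sites of Trat1, Cd3e and Cd44 is shown because these are the called members and the member with the largest fall in estimate. Each line gives the 250 bases before the RefSeq start (GRCm38.p6, minus strand of the genome, written 5′ to 3′ along the gene). Capitals mark a RUNX core (TGTGGT or its other strand ACCACA) or an ETS core (CAGGAA or TTCCTG); the motif families were picked after the values had been seen.
Trat1, chr16:48772063-48772312: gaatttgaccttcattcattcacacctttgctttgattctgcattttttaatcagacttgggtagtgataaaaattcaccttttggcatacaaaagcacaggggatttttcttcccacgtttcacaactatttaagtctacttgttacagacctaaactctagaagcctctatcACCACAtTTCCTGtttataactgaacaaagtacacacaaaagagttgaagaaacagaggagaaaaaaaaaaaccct
Cd3e, chr9:45009612-45009861: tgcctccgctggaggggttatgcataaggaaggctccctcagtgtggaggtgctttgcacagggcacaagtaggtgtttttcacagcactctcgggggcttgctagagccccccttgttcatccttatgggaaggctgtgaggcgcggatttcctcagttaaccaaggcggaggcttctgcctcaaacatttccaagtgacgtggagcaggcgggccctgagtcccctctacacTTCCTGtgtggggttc
Cd44, chr2:102901666-102901915: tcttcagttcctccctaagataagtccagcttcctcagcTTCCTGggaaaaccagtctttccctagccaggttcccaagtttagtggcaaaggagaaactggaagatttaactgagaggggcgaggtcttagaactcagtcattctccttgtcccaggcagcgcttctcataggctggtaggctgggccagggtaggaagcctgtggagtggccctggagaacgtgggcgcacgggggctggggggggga
Trat1 had 1 RUNX core and 1 ETS core, and Cd3e and Cd44 had 0 RUNX cores and 1 ETS core each. The window of Trat1 was 35.2% G or C, beside 57.2% for Cd3e and 56.4% for Cd44. Of all 32851 such windows, 14.0% held the RUNX core and 25.7% the ETS core, and of 48 windows of the 33 members with an entry, 5 (10.4%) and 20 (41.7%) did. Cd3e shares 9.23% of its exon length with Gm48719. GENCODE places the start of Cd3e at 45009627, inside the window shown, so the ETS core of Cd3e lies within the gene by that annotation. A match says only that these letters are present, and binding was not measured.

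The receptor chains stayed close to their control levels except for Cd3e. Cd3e (chromosome 9, 44998740 to 45009627), the epsilon chain that pairs with both the delta and the gamma chain, measured 1260.2, 1307 and 1197 CPM in the deficient cells, against 971, 924 and 824 CPM in the genetic controls. In the animal controls it measured 1378, 1241 and 1408 CPM. The genetic controls thus lay below the other 6 libraries, and deficient cells and animal controls overlapped. Cd3e rose by 0.47 ± 0.09 against the genetic controls (limma adjusted p = 0.0398), and the difference from the animal controls was -0.10 ± 0.09 (adjusted p = 0.746, interval -0.29 to 0.10). The genetic and animal controls, which both kept Thpok and LRF, differed by -0.57 ± 0.09 (adjusted p = 0.0718). The call was lost without any 1 of the 9 libraries, at adjusted p from 0.0512 to 0.137, while the estimate stayed between 0.40 and 0.52.

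Cd3d and Cd3g, the delta and gamma chains, are neighbours of Cd3e (chromosome 9, 44981786 to 44987339 and 44969572 to 44980431) and did not show its pattern. Cd3d measured 709, 732 and 769 CPM in the deficient cells, 732, 700.2 and 764 in the genetic controls and 759, 747 and 907 in the animal controls. Its groups overlapped, with log2 differences of 0.01 ± 0.10 (interval -0.21 to 0.23) and -0.12 ± 0.10 (-0.34 to 0.10) against genetic and animal controls. Cd3g measured 759, 862 and 714 CPM, 815, 819.6 and 795 CPM, and 852, 852 and 993 CPM in the same order of groups. Its differences were -0.06 ± 0.10 (interval -0.28 to 0.16) and -0.21 ± 0.10 (-0.43 to 0.01). Cd247, the zeta chain that carries most of the receptor's tyrosine motifs, measured 471, 537 and 619 CPM in the deficient cells, 502, 437 and 433 in the genetic controls and 463, 395 and 508 in the animal controls. Its differences were 0.24 ± 0.14 (interval -0.07 to 0.55) and 0.25 ± 0.14 (-0.06 to 0.56), so differences anywhere within these limits remain compatible with the values. Cd247 shares 68.5% of its exon length with overlapping genes, Pou2f1 and Gm16565, and reads there cannot be assigned without strand.

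Per kilobase of exon, the scale on which genes can be compared with each other, Cd3e and Cd3g stood above Cd3d in all 3 groups. In the deficient cells the group means were 858 CPM per kb for Cd3e, 761 for Cd3g and 456 for Cd3d. In the genetic controls they were 619.9, 792 and 453 CPM per kb, and in the animal controls 918, 879 and 497. Over all members of the deficient group, means ran from 3.52 CPM per kb for Pag1 to 873 for Lck. Lengths are unions of annotated exons, which overstate the length of a gene with long unused exons.

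Among the kinases, Lck and Fyn overlapped between groups, and Zap70 was lowest in the deficient cells without passing the test. Lck (chromosome 4, 129548344 to 129573641), the kinase that starts the signal, measured 1848, 1969 and 2249.5 CPM in the deficient cells, 2289.9, 1733 and 1629 in the genetic controls and 1733, 1455 and 2091 in the animal controls. Its differences were 0.11 ± 0.15 (interval -0.23 to 0.46) and 0.21 ± 0.15 (-0.13 to 0.56). Fyn, a kinase of the same family, had group means of 444 ± 55.4, 476 ± 66.0 and 443 ± 15.0 CPM (SD, n = 3) and intervals of -0.41 to 0.21 and -0.31 to 0.31 for its differences.

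Zap70 (chromosome 1, 36761798 to 36782818), which docks on the phosphorylated chains, measured 181, 158 and 204 CPM in the deficient cells, 267, 317 and 283 in the genetic controls and 288, 233 and 208 CPM in the animal controls. Each deficient library lay below each control library, by a narrow margin at 204 against 208 CPM. The log2 differences were -0.68 ± 0.17 (limma adjusted p = 0.128) and -0.42 ± 0.17 (adjusted p = 0.368). Txk, a kinase of the Tec family, measured 116, 81.5 and 119 CPM in the deficient cells, 94.3, 97.4 and 74.0 in the genetic controls and 59.3, 39.4 and 70.4 in the animal controls. The animal controls lay below the other 6 libraries. Its differences were 0.24 ± 0.28 (adjusted p = 0.831) and 0.93 ± 0.28 (adjusted p = 0.219), and that between the controls was 0.68 ± 0.28 (adjusted p = 0.728).

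Of the 10 adaptors, Trat1 fell against the genetic controls and the other 9 were not called, where 0.869% of all genes were called. Against the animal controls 0 of 10 were called by limma, where 0.891% of all genes were. Trat1 (chromosome 16, 48730774 to 48772021) encodes TRIM, a transmembrane adaptor that associates with the receptor's zeta chain. It measured 30.7, 42.6 and 48.9 CPM in the deficient cells, 106, 121 and 87.8 in the genetic controls and 89.1, 94.3 and 108 CPM in the animal controls. The deficient libraries lay well below all 6 control libraries, and the 2 kinds of control overlapped. Trat1 fell by 1.38 on the log2 scale against the genetic controls (SE 0.26, limma adjusted p = 0.0429), 2.61-fold lower. Against the animal controls the difference was -1.28 ± 0.26, 2.42-fold lower, and missed the threshold at an adjusted p of 0.0575. With the mouse as a random term, which uses that deficient and animal-control libraries come from the same mice, that difference was called (adjusted p = 0.0471). With the mouse as a fixed term it was not called (adjusted p = 0.273). The call against the genetic controls was lost without any 1 of the 9 libraries (adjusted p from 0.0654 to 0.155, log2 fold change from -1.53 to -1.19).

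Themis, a T cell adaptor needed for thymic selection, went the other way in estimate. It measured 115, 59.9 and 105 CPM in the deficient cells, 51.7, 55.0 and 37.1 in the genetic controls and 46.3, 12.6 and 32.9 in the animal controls. Every deficient library lay above every control library, though at 59.9 against 55.0 CPM the gap was small. The differences were 0.93 ± 0.49 (limma adjusted p = 0.540) and 1.75 ± 0.49 (adjusted p = 0.170), with wide intervals of -0.16 to 2.01 and 0.66 to 2.83. Sh2d1a, which encodes SAP, the adaptor of SLAM family receptors, measured 71.3, 79.4 and 70.6 CPM in the deficient cells, 88.3, 112 and 138 in the genetic controls and 102, 92.6 and 162 in the animal controls. It was lower without overlap and not called, at -0.59 ± 0.27 (adjusted p = 0.479) and -0.64 ± 0.27 (adjusted p = 0.382). Of its exon length 37.8% is shared with Tenm1.

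The scaffolds at the centre of the pathway overlapped between groups. Lat (chromosome 7, 126363824 to 126369570), the membrane scaffold, measured 586, 614 and 711 CPM in the deficient cells, 747, 582 and 623 in the genetic controls and 528, 494 and 586 in the animal controls. Its differences were -0.03 ± 0.13 (interval -0.31 to 0.26) and 0.25 ± 0.13 (-0.03 to 0.53). Lcp2, which encodes SLP-76, averaged 509.7 ± 62.8, 562 ± 41.7 and 552 ± 18.4 CPM (SD, n = 3) in deficient cells, genetic controls and animal controls. Its differences were -0.15 ± 0.11 and -0.12 ± 0.11. Grap2, the adaptor that joins LAT to SLP-76, averaged 47.5 ± 16.2, 31.7 ± 8.96 and 30.9 ± 9.95 CPM. Its intervals, -0.37 to 1.47 and -0.32 to 1.52, were wide. Grb2, Sh2d2a, Skap1 and Fyb, other adaptors of the pathway, had differences between -0.29 and 0.19 against the genetic controls and between -0.44 and 0.03 against the animal controls.

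**Figure D3:**
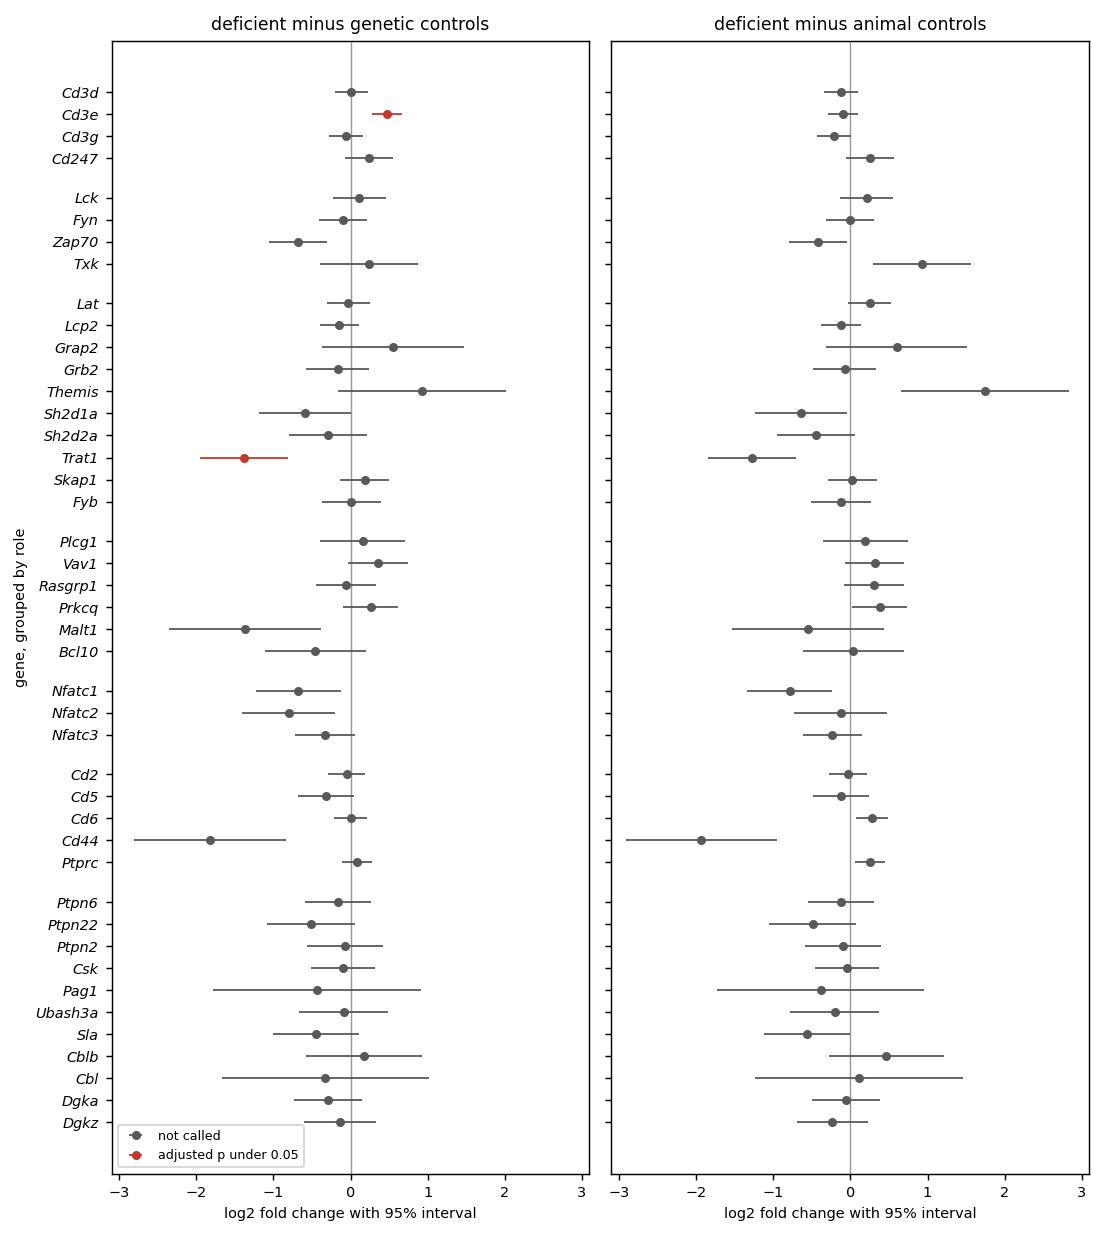
Log2 fold change (horizontal axis) with its 95% interval for each of the 43 members (vertical axis, grouped by role from receptor chains at the top to brakes at the bottom), for deficient cells minus genetic controls (left) and minus animal controls (right). Red marks an adjusted p under 0.05: Cd3e (0.47) and Trat1 (-1.38) on the left and no gene on the right.

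Of the 6 enzymes and switches downstream of the adaptors 0 were called by limma in either comparison, where 0.869% and 0.891% of all genes were. At an unadjusted p under 0.05, 0 were higher and 1 lower against the genetic controls (all genes 4.96% and 5.66%), and 1 was higher and 0 lower against the animal controls (5.57% and 6.34%). Vav1, an exchange factor for Rac, measured 390.2, 389 and 357 CPM in the deficient cells, 354, 285 and 257 in the genetic controls and 337, 344 and 243 in the animal controls. Prkcq, which encodes the protein kinase C isoform of the T cell synapse, measured 587, 644 and 609 CPM, 565, 456 and 521 CPM, and 569, 367 and 498 CPM in that order. In both genes the deficient libraries lay above all 6 controls by small margins. The differences were 0.36 ± 0.17 and 0.31 ± 0.17 for Vav1 and 0.26 ± 0.16 and 0.38 ± 0.16 for Prkcq. Malt1, a protease and scaffold of the complex that activates NF-kB, had the largest estimate of these genes. It measured 40.6, 21.7 and 26.8 CPM in the deficient cells, 104, 70.1 and 55.2 in the genetic controls and 61.9, 23.6 and 50.9 in the animal controls. Its differences were -1.36 ± 0.44 (limma adjusted p = 0.271) and -0.55 ± 0.44 (adjusted p = 0.710), and animal control 232614, at 23.6 CPM, fell among the deficient libraries. Bcl10, its partner, averaged 64.7 ± 13.5, 89.8 ± 24.9 and 63.0 ± 11.9 CPM (SD, n = 3). Rasgrp1, an exchange factor for Ras, and Plcg1, the phospholipase that makes its activator diacylglycerol, had differences of -0.06 ± 0.17 and 0.16 ± 0.25 against the genetic controls and of 0.31 ± 0.17 and 0.19 ± 0.25 against the animal controls.

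The NFAT genes encode the transcription factors released by calcium and calcineurin, and all 3 estimates lay below 0 in both comparisons. By limma 0 of 3 were called in either comparison, where 0.869% and 0.891% of all genes were. At an unadjusted p under 0.05, 2 were lower against the genetic and 1 against the animal controls, beside 5.66% and 6.34% of all genes. Nfatc1 measured 194, 293 and 139 CPM in the deficient cells, 291, 291 and 380.3 in the genetic controls and 305, 359.5 and 372 in the animal controls. Deficient library 232614, at 293 CPM, lay within the genetic controls, and the other deficient libraries lay below all controls. Its differences were -0.68 ± 0.25 (adjusted p = 0.347) and -0.79 ± 0.25 (adjusted p = 0.233). Nfatc2 measured 107, 70.0 and 68.7 CPM in the deficient cells, 123, 124 and 179 in the genetic controls and 77.6, 111 and 78.0 in the animal controls. It was lower than the genetic controls without overlap (-0.80 ± 0.27, adjusted p = 0.291) and overlapped the animal controls (-0.13 ± 0.27, adjusted p = 0.926). Nfatc3 averaged 284 ± 41.6, 357 ± 53.2 and 334 ± 50.4 CPM (SD, n = 3), with differences of -0.33 ± 0.17 and -0.24 ± 0.17.

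Among the surface partners Cd44 had the largest estimated fall of all members, and it was not called. Cd44 (chromosome 2, 102811141 to 102901665), the hyaluronan receptor that marks activated and memory T cells, measured 34.2, 32.5 and 109.9 CPM in the deficient cells, 139, 209 and 187 in the genetic controls and 151, 178 and 255 in the animal controls. All 3 deficient libraries lay below all 6 controls, but library 432614 stood apart from the others of its group. The differences were -1.82 ± 0.44 (limma adjusted p = 0.115) and -1.93 ± 0.44 (adjusted p = 0.0903). Without deficient library 432614 they were -2.40 (adjusted p = 0.0104) and -2.51 (adjusted p = 0.00590), both past the threshold. Without deficient library 142114 or 232614, or any control, Cd44 was not called.

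Ptprc (chromosome 1, 138062861 to 138175708) encodes CD45, the phosphatase that activates Lck, and measured 2365, 2487 and 2407 CPM in the deficient cells, 2452, 2158 and 2249.5 in the genetic controls and 1872, 1902 and 2328 in the animal controls. Its differences were 0.08 ± 0.09 (interval -0.11 to 0.28) and 0.26 ± 0.09 (0.06 to 0.45, limma adjusted p = 0.271). Cd6, a scavenger-type receptor that docks SLP-76, measured 1226, 1378 and 1184 CPM, 1355, 1317 and 1109 CPM, and 993, 1079 and 1042 CPM in deficient cells, genetic controls and animal controls. The animal controls lay below the other 6 libraries for Cd6, and the differences were 0.01 ± 0.10 (adjusted p = 1) and 0.28 ± 0.10 (adjusted p = 0.273). Cd5, its neighbour on chromosome 19 and a receptor whose level follows the strength of self recognition in thymocytes, averaged 414 ± 38.5, 522 ± 117 and 449 ± 34.8 CPM (SD, n = 3). Cd2, the adhesion receptor for CD48, averaged 976 ± 57.9, 1013 ± 127 and 998 ± 92.0 CPM, with intervals of -0.29 to 0.19 and -0.27 to 0.21.

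**Figure D4:**
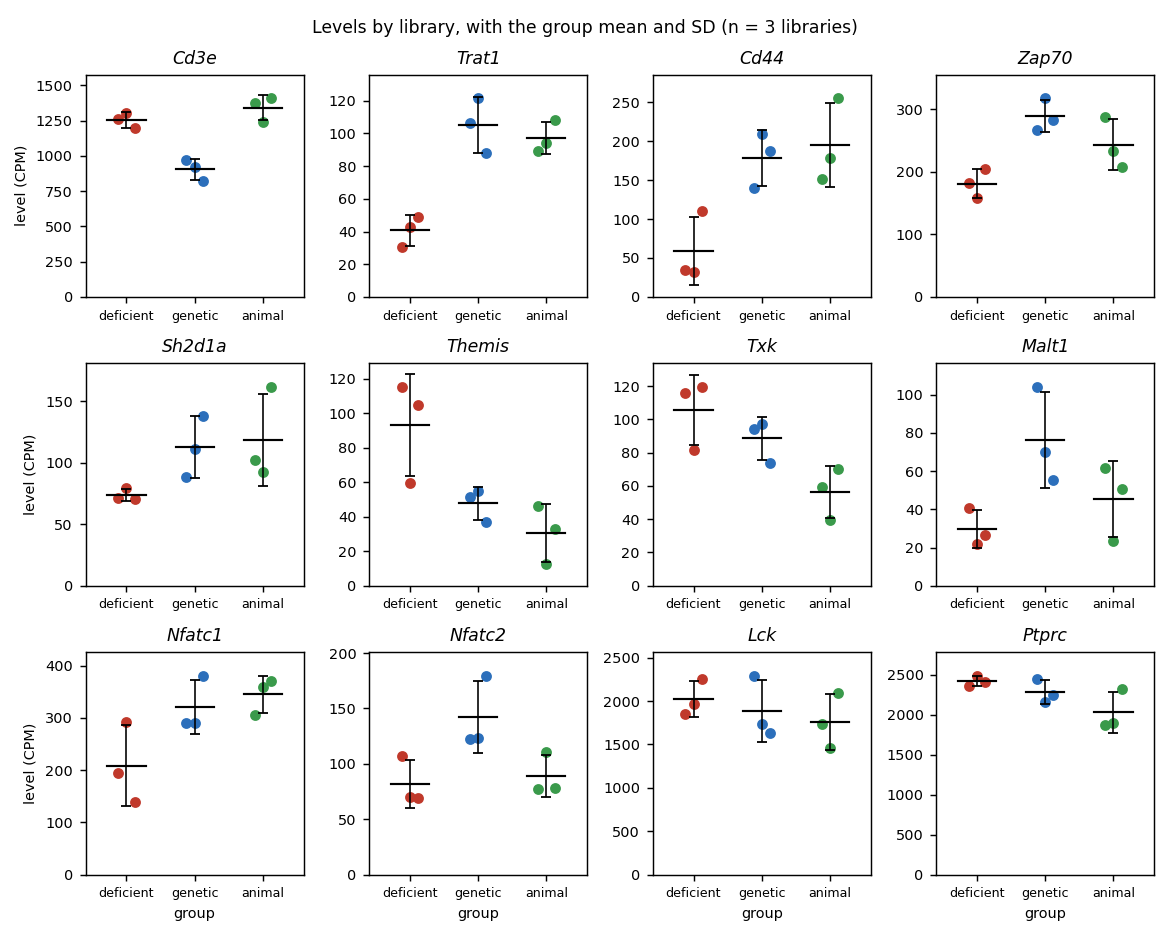
Level in CPM (vertical axes, starting at 0 and scaled separately) of 12 members in each library of the 3 groups (points), with the group mean (line) and SD (bar, n = 3). For Trat1, Cd44, Zap70 and Sh2d1a each deficient library is below each control library, for Themis each is above, and the groups overlap for Lck.

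Of the 11 brakes 0 were called by limma in either comparison, where 0.869% and 0.891% of all genes were called. Without overlap 0 brakes differed. Of the genes averaging at least 10 CPM, 8.72% were lower and 9.21% higher without overlap against the genetic controls. Against the animal controls those shares were 9.48% and 9.05%. At an unadjusted p under 0.05, 0 brakes were lower or higher against the genetic controls and 1 was lower against the animal controls (all genes 6.34%). That gene was Sla, which encodes an adaptor that lowers surface receptor, and its difference of -0.57 ± 0.25 was not called (adjusted p = 0.414). The medians of their estimates were -0.16 and -0.12. Ptpn22, a phosphatase of Lck and Zap70, had the lowest estimate against the genetic controls (-0.51 ± 0.25, adjusted p = 0.518) at 192, 187 and 116 CPM against 241, 274 and 183 CPM. Csk, the kinase that holds Lck inactive, averaged 204 ± 44.5, 215 ± 17.8 and 207 ± 19.0 CPM (SD, n = 3). Pag1, the membrane anchor of Csk, averaged 29.1 ± 4.65, 41.3 ± 15.7 and 46.7 ± 31.3 CPM, and its intervals of -1.78 to 0.91 and -1.73 to 0.96 were the widest of the brakes, with those of Cbl. Ptpn6, the phosphatase SHP-1, averaged 207 ± 15.8, 236 ± 62.9 and 226 ± 21.4 CPM. Ptpn2, also a phosphatase, and Ubash3a, which lowers receptor signalling, had differences between -0.20 and -0.07 over both comparisons. Among the ubiquitin ligases, Cblb had differences of 0.17 ± 0.33 and 0.47 ± 0.33, and Cbl, of -0.33 ± 0.60 and 0.11 ± 0.60. The diacylglycerol kinases, which end signalling through Ras and protein kinase C, gave -0.29 ± 0.20 and -0.06 ± 0.20 for Dgka and -0.14 ± 0.21 and -0.23 ± 0.21 for Dgkz.

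The wider pathway was read from a list of 171 further genes, of which 159 were measured. Against the genetic controls 2 rose and 2 fell, where 0.869% of all genes were called in either direction. Against the animal controls 1 rose and 2 fell, where 0.891% of all genes were called. The median log2 fold changes of the list were -0.06 and -0.03, beside 0.04 over all genes in each. The genes that rose were those of the CD8 co-receptor, which brings Lck to receptors bound to MHC class I. Cd8a measured 354, 390.2 and 357 CPM in the deficient cells, with a range of 13.2 to 50.9 CPM over the controls, and it rose by 4.14 ± 0.40 and 3.53 ± 0.40 (limma adjusted p = 0.00188 and 0.00345), and Cd8b1 by 2.98 ± 0.53 against the genetic controls (adjusted p = 0.0370), with 2.37 ± 0.53 against the animal controls (adjusted p = 0.0880). Cd4, the co-receptor for MHC class II, measured 381, 329 and 355 CPM in the deficient cells, with a range of 678 to 1026 CPM over the controls, and it fell by 1.27 and 1.32 on the log2 scale (adjusted p = 0.00488 and 0.00338). The Cd4 call against the genetic controls was lost without the trend of the spread and with only the 6 libraries compared, at adjusted p up to 0.116, and that against the animal controls was lost without the trend. With the mouse as a fixed term the calls against the animal controls were lost, at adjusted p of 0.198 for Cd8a, 0.159 for Cd4 and 0.232 for Ptpn7 described next, as were those of all genes in that fit. These are described here only because Lck is bound by the co-receptors, and Lck itself overlapped between groups.

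Ptpn7, a phosphatase of blood cells that acts on MAP kinases, was the other gene that fell. It measured 129, 79.3 and 98.1 CPM in the deficient cells, 314, 184 and 353 in the genetic controls and 282, 285 and 323 CPM in the animal controls. The deficient libraries lay below all 6 controls. It fell by 1.45 (SE 0.26) and 1.57 (SE 0.26) on the log2 scale, with limma adjusted p of 0.0381 and 0.0245. The first call held without genetic control 8619 and was lost without any other library, at adjusted p up to 0.143. The second was lost without deficient library 232614 or 432614 or any animal control, at adjusted p up to 0.0986. The Cd8b1 call was lost without genetic control 124 or 8800, any deficient library, or animal control 142114 or 432614, at adjusted p up to 0.132.

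By branch, the 6 measured co-receptor and receptor constant genes held 2 that rose and 1 that fell against the genetic controls and 1 and 1 against the animal controls. The 34 other brakes held 0 and 1 in each comparison, and that gene was Ptpn7. Of all genes, 0.869% and 0.891% were called in these comparisons, in either direction. The 8 SLAM family and ligand genes, 18 other kinases and adaptors, 20 Ras and MAP kinase genes, 19 calcium and calcineurin genes and 33 PI3K and cytoskeleton genes held 0 called by limma in either direction in both comparisons. Over the whole list of 159, 10 genes were higher and 16 lower at an unadjusted p under 0.05 against the genetic controls, beside 4.96% and 5.66% of all genes (6.29% and 10.1% of the list). At that p, 18 were higher and 19 lower against the animal controls, which is 11.3% and 11.9% of the list, beside 5.57% and 6.34% of all genes.

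The 2 kinds of control, which both kept Thpok and LRF, were also compared. Of 43 members 0 were called by limma, where 0.0365% of all genes were, and at an unadjusted p under 0.05, 3 were higher and 1 lower in the genetic controls, beside 3.44% and 3.18% of all genes. The median log2 difference was 0.05, beside -0.02 over all genes. Without overlap, 5 members (11.6%), Txk, Rasgrp1, Bcl10, Nfatc2 and Cd6, were higher in the genetic controls, and 2 (4.65%), Cd3e and Cd3g, were lower, beside 5.8% and 6.44% of genes averaging at least 10 CPM. For Nfatc2 the control groups differed by 0.67 ± 0.27 (adjusted p = 0.725) and for Cd6 by 0.28 ± 0.10 (adjusted p = 0.660). Trat1 and Cd44, the members with the largest falls in estimate, differed between the controls by 0.11 ± 0.26 (interval -0.47 to 0.68) and -0.11 ± 0.44 (-1.09 to 0.87).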

How the data were processed

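RNA of 9 sorted Treg cell libraries was sequenced after RNeasy extraction and SMARTer and Nextera XT library preparation, per the labels' protocols. The submitters' processing notes name bcl2fastq 1.8.4, STAR 2.4.0h, mm10 and limma; for the counting program, annotation and filters, the notes and labels are silent. Values as deposited are log2 CPM that, judged by their distribution, had been quantile-normalized by the authors, so depth is unknown and a shift of all genes in a library cannot be seen. Linear values sum to between 999258 and 999307 per library.

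Of 13702 rows 4 were exact duplicates and were dropped, which left 13698 genes. Contrasts between group means were fitted over all 9 libraries with limma 3.58.1 (R 4.3.3, trend of the spread with the mean, no pseudocount, no filter), with Benjamini-Hochberg adjustment over all genes and a threshold of 0.05. An exact permutation test of 3 against 3 libraries cannot go below p = 0.1 and was not used. CPM values are back-transformed log2 values. On simulated data for deficient cells against genetic controls, with 13698 genes, 7% of 100 genes changed by 1 on the log2 scale and 46% of 100 changed by 2 were recovered, with 3 false calls. The changed genes were drawn from the 7550 genes averaging at least 10 CPM, and each gene kept its own spread. Positions and exon lengths come from GENCODE M21 (GRCm38) and promoters from RefSeq (GRCm38.p6).

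Deficient and animal-control libraries come from the same 3 mice, per the labels. Their deviations from the group means correlated at 0.0483, 0.0202 and 0.0170 within a mouse and at -0.0304 to 0.00803 between mice, over 7550 genes. The fit without the mouse is the one reported.

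The members and gene lists were chosen with earlier results of these data known. Library values are given for Cd3d, Cd3e, Cd3g, Cd247, Lck, Zap70, Lat and Ptprc, for each member called, and for the 10 uncalled members with the lowest adjusted p; of the other pathway genes, those called are named. A branch of that list is not reported here on its own. Values of other members are given in addition. Alternatives were no trend, only the 6 libraries compared, the mouse as a fixed or random term, a pseudocount of 1 CPM, a filter of 10 CPM in 3 libraries, re-centring and leaving out libraries.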

Additional observations from a re-analysis of the deposited data

How the results depend on the processing

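The count of members called against the genetic controls, 2 as reported, was 0 without the trend, 0 with only the 6 libraries compared, 1 with a pseudocount of 1 CPM (Trat1), and 0 to 1 over the fits that leave out 1 library each, where the 1 was Cd44 without deficient library 432614. It was 0 without genetic control 8619 and animal control 232614 together. It was also 0 without genetic control 8619 and deficient library 232614 together, the libraries highest in erythroid markers, an alternative chosen after seeing the data. It stayed 2 with the random mouse term, the filter and re-centring. Against the animal controls the count, 0 as reported, was 1 (Trat1) with a pseudocount or the filter, and 0 to 1 with 1 library left out, where the 1 was Cd44 without deficient library 432614. Between the controls it was 0 under every alternative run. The medians of the members moved by less than their spread between libraries under each alternative. No result reversed its direction past the threshold. The cause of the lost and gained calls was not tested.

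For the replicate block, the mouse as a random term gave 1 member called against the animal controls (Trat1, adjusted p = 0.0471), and the mouse as a fixed term gave 0, with 0 of all 13698 genes called. Ptpn7 against the animal controls had an adjusted p of 0.232 in that fixed fit. A fixed mouse term was not run for comparisons with the genetic controls, whose mice each gave a single library.

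Over all genes, calls against the genetic controls, 119 as reported, numbered 22 with only the 6 libraries compared, 48 to 93 with 1 library left out, and 21 and 29 in the fits without a pair of libraries. Against the animal controls, 122 as reported, they numbered 52 with only the 6 libraries, 58 to 115 with 1 left out, and 27 and 60 without a pair. Between the controls, 5 as reported, they numbered 32 without the trend, 3 with only the 6 libraries, 4 to 10 with 1 left out, and 1 and 4 without a pair. Against the genetic controls 46 genes rose and 73 fell, beside 46 and 39 without the trend.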

Other observations

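A gene of the wider pathway list had estimates of like size against both kinds of control without being called; it and the genes below were chosen after their values were seen. Pik3cd, the PI3-kinase subunit p110 delta, measured 557, 541 and 453 CPM in the deficient cells, with a range of 262 to 405 CPM over the 6 controls, with differences of 0.70 ± 0.17 and 0.69 ± 0.17 (limma adjusted p = 0.115 and 0.114). All 3 deficient libraries lay above all 6 controls.

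The constant-region genes of the receptor differed in sign. Trac, of the alpha chain, measured 367, 405 and 372 CPM in the deficient cells, with a range of 439.9 to 484 CPM over the 6 controls. Trbc2, of the beta chain, measured 1547, 1537 and 1555 CPM in the deficient cells, with a range of 1217 to 1426 CPM over the 6 controls. The differences were -0.31 ± 0.10 and -0.30 ± 0.10 for Trac (limma adjusted p = 0.260 and 0.263) and 0.26 ± 0.07 and 0.26 ± 0.07 for Trbc2 (adjusted p = 0.186 and 0.182). Itpr1, a calcium channel of the endoplasmic reticulum, measured 53.0, 72.5 and 51.4 CPM in the genetic controls, against 5.95 to 21.7 CPM over the other 6 libraries, and was not called in any comparison (adjusted p = 0.115 for deficient cells against genetic controls and 0.364 between the controls).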
